A study of Mus musculus with 4 samples.

Results

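The genes described here are the EGF receptor family and its ligands, 9 genes chosen by name out of 32288 features in the deposited count table. They comprise the receptors Egfr, Erbb2 and Erbb3 and the ligands Tgfa, Areg, Ereg, Hbegf, Btc and Egf. All 9 were found in the table, and their levels were followed over the cell types that the authors named in mouse pancreas during repeated injury. The cells came from 4 mice of the genotype Ptf1aCre-ERTM;ROSAYFP/+, described as backcrossed into CD-1. In these mice tamoxifen switches on a yellow fluorescent protein, EYFP, in the acinar cells that make digestive enzymes, and the mark is inherited by whatever those cells become. All 4 mice received tamoxifen and then caerulein, a cholecystokinin analogue that causes pancreatitis, starting at 10 weeks of age. Caerulein was given for 2 weeks in 2 mice and for 4 weeks in the other 2 mice. No uninjured mouse is among the samples, so every level below is a level in injured tissue. EYFP-positive cells were sorted and sequenced with 10x 3' chemistry, which counts RNA molecules (UMIs) near the end of each transcript.

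EGF family ligands are made as membrane-anchored precursors that proteases such as ADAM17 release. They bind EGFR, which pairs with itself or with ERBB2 or ERBB3 and passes the signal through the adaptors GRB2 and SHC1 to RAS and the MAP kinases. ERBB2 binds no known ligand of its own, and ERBB3, a receptor for neuregulins, has little kinase activity and signals mainly through its partner. In the pancreas, TGF-alpha and the other EGFR ligands are known for driving acinar cells towards a duct-like state, the acinar-to-ductal metaplasia that follows injury.

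The merged table held 21140 cells, with 4715 to 6255 cells and 72459531 to 103610807 UMIs per mouse. Of these, 13362 cells carried 1 of 8 type names given by the authors, 2586 of them also carried 1 of 9 tuft or enteroendocrine subtype names, and 7778 cells had no type name. All typed cells held at least 1 EYFP UMI, and 67 cell barcodes occurred in more than 1 mouse. Checked against their markers, Acinar, MucinDuctal, Tuft and EEC cells held the genes their names call for. In the Tuft/EEC.Progenitor type of 4 weeks, mouse 1, 1 of 25 cells held all 569 neutrophil marker UMIs. The 7 acinar markers summed to 277023 CPM, UMIs scaled to a common library total, in Acinar and 9858 CPM in MucinDuctal cells, and the 7 mucin and duct markers to 2152 and 40972 CPM. Tuft markers summed to 7810 CPM in Tuft cells and to at most 409 CPM in any other type, and enteroendocrine markers to 8926 CPM in cells named EEC and to at most 309 CPM elsewhere. The Tuft/EEC.Progenitor type lay within these limits of 409 and 309 CPM, so it held little of either marker set. A list of 14 immediate early genes, which also respond to tissue dissociation, summed highest in 2 weeks, mouse 2 in each of the 7 types that were tested over time, so that mouse stands apart. In the untyped cells, clusters were named here from markers, with names in lower case ending in "-like". The capitalised Ductal-like is a type of the authors.

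Levels are CPM of the UMIs summed per mouse and type, for types with at least 20 cells in the mouse. The Tuft/EEC.Progenitor type had 10 cells in 2 weeks, mouse 1, and is therefore given for 3 mice. Values listed for 4 mice are always in the order 2 weeks, mouse 1, then 2 weeks, mouse 2, then 4 weeks, mouse 1, then 4 weeks, mouse 2. In bulk sums of this kind, fewer cells with a transcript and fewer molecules per cell cannot be told apart from the CPM alone.

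Among the ligands, 3 lie together with the related ligand gene Epgn on chromosome 5 of GRCm38.p6, within 375 kb. Ereg spans chr5:91074617-91093649, Areg spans chr5:91139599-91148432 and Btc spans chr5:91357261-91402994, with 45.9 kb between Ereg and Areg and 209 kb between Areg and Btc. Egf lies apart, at chr3:129677574-129755322. The 250 bases before the RefSeq start of Areg (chr5:91139349-91139598, plus strand), Btc (chr5:91402995-91403244, minus strand) and the first of 2 Egf starts (chr3:129755323-129755572, minus strand) are shown, because these 3 ligands had different patterns over the same cells. They are printed 5' to 3', with motif matches in capitals.
Areg: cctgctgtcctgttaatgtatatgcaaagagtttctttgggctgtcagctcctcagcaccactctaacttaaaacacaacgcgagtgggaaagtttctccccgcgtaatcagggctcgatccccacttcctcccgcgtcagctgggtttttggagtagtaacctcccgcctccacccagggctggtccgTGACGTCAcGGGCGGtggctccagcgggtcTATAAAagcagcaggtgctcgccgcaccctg
Btc: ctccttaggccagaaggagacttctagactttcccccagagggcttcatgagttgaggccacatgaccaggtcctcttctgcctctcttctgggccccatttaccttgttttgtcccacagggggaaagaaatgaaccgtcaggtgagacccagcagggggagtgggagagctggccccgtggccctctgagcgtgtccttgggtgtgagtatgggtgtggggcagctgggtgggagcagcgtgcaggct
Egf: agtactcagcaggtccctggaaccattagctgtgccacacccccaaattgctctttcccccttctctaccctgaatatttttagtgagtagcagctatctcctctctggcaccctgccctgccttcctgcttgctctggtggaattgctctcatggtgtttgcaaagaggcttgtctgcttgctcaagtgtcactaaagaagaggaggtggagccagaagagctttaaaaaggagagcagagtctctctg
In the Areg window the capitals mark a cyclic AMP response element (TGACGTCA, bases -61 to -54 from the start), a GC box (GGGCGG, -52 to -47) and a TATA box (TATAAA, -31 to -26). Both strands were searched for these motifs and for the AP-1 site TGANTCA, and the 3 matches in Areg did not overlap. The letters of the AP-1 site are not in that window. Of 32851 promoter windows of the same length, 1.55% held the cyclic AMP response element, 32.7% the GC box, 12.4% the TATA box and 6.75% the AP-1 site. The Btc and Egf windows held none of these letters. CpG pairs numbered 15 in the Areg window, 4 in that of Btc and 0 in that of the first Egf start. The window of the second Egf start, which is not shown, had 15, as many as that of Areg. RefSeq promoters were matched for 6 of the 8 members looked up.

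**Figure D1:**
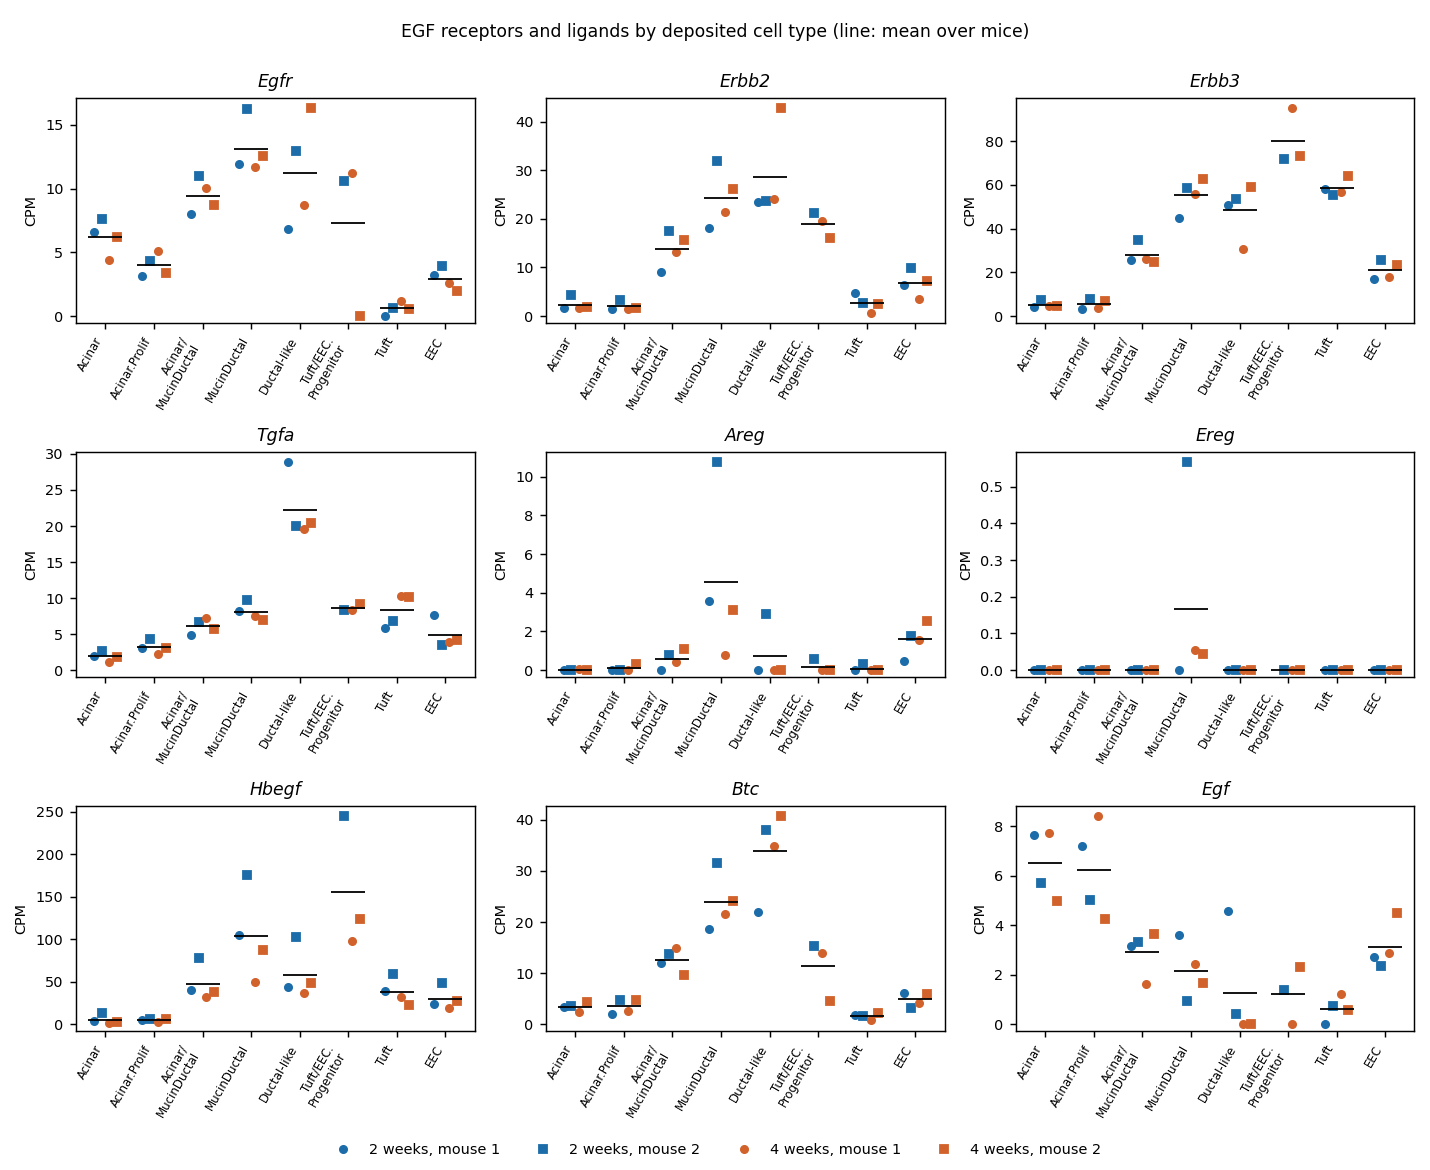
CPM of each member in each cell type named by the authors, 1 point per mouse, with colour for the weeks of caerulein and marker shape for the mouse. Erbb2, Erbb3, Hbegf and Btc sit above their Acinar points in MucinDuctal and Ductal-like cells, Tgfa is at its highest in Ductal-like cells, and Egf is at its highest in the acinar types.

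Egfr, the receptor that binds TGF-alpha, amphiregulin, EGF and the other EGF-type ligands, spans chr11:16752203-16913907, and a long noncoding RNA gene, Egfros (chr11:16809648-16830750), lies inside it. The counting of overlapping genes is not given in the sources used here, so a share of Egfr reads from Egfros cannot be told apart. In Acinar cells Egfr measured 6.57, 7.61, 4.37 and 6.20 CPM, and in MucinDuctal cells 11.9, 16.3, 11.7 and 12.6 CPM. All 4 MucinDuctal values lay above all 4 Acinar values on this scale, but not with digestive enzyme genes left out of the library sizes, where Acinar cells had 14.002, 15.2, 10.7 and 15.4 CPM and MucinDuctal cells 12.3, 16.5, 12.1 and 12.9 CPM. Tuft cells, chemosensory cells with a brush of microvilli, had 0, 0.67, 1.20 and 0.58 CPM, and the hormone-producing EEC cells 3.21, 3.95, 2.63 and 1.96 CPM. By mean CPM over mice, EEC and Tuft cells were the lowest types and did not overlap each other. The order of the 6 types above them depends on the scaling, and there no neighbours by mean CPM had separate ranges.

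Egfr was higher still in 2 classes of cells without a type name. Untyped fibroblast-like cells, 702 in all, had 130.6, 88.9, 126.5 and 91.1 CPM. Mesothelial-like cells, 111 in all, had 78.8, 29.1, 55.9 and 43.8 CPM. Every fibroblast-like value was above every value of the named types, and the mean log2 difference from MucinDuctal cells was 3.05 ± 0.49 (SD, n = 4 mice). Inside the type named Acinar/MucinDuctal, the deposited cluster 15 had 53.4, 136, 152 and 191 CPM of Egfr, but it rests on 2, 2, 5 and 8 UMIs in 14, 8, 15 and 22 cells. This cluster was singled out after its values were seen.

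Erbb2, the ligandless partner receptor (chr11:98412484-98437716), was low in Acinar cells, with 1.72, 4.32, 1.65 and 1.85 CPM. MucinDuctal cells had 18.2, 32.0, 21.3 and 26.1 CPM, and Ductal-like cells 23.6, 23.8, 24.01 and 42.8 CPM. Both types lay above the Acinar range in every mouse, and they overlapped each other. Tuft cells had 4.68, 2.61, 0.60 and 2.49 CPM, which overlapped the Acinar values.

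Erbb3, the neuregulin receptor (chr10:128567523-128589635), had another distribution. Acinar cells had 4.21, 7.37, 4.79 and 4.60 CPM, MucinDuctal cells 45.1, 58.7, 55.9 and 62.6 CPM, and Tuft cells 57.9, 55.4, 56.8 and 64.2 CPM. The MucinDuctal and Tuft values overlapped, and both stood apart from the Acinar values. In the Tuft/EEC.Progenitor type the 3 mice with enough cells had 71.8, 95.1 and 73.4 CPM, the highest mean of any named type. Without the 1 cell with neutrophil markers, the value of 95.1 CPM became 97.4 CPM. EEC cells lay between, at 17.0, 25.7, 17.9 and 23.5 CPM. Tuft cells thus paired a high Erbb3 level with Egfr and Erbb2 levels near the bottom of the range of types.

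Tgfa (chr6:86195038-86275744), the ligand TGF-alpha, was highest among the named types in the 139 Ductal-like cells, at 28.9, 20.0, 19.6 and 20.4 CPM. MucinDuctal cells had 8.23, 9.71, 7.57 and 6.90 CPM and Acinar cells 2.02, 2.71, 1.19 and 1.77 CPM. These 3 types did not overlap. In untyped ductal-like cells, whose markers are those of ordinary duct, Tgfa measured 17.0, 26.0, 32.3 and 43.4 CPM, a higher mean (29.7 against 22.2 CPM) with an overlapping range. Tuft cells had 5.85, 6.87, 10.2 and 10.2 CPM, across the MucinDuctal range.

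Btc, betacellulin, a ligand of EGFR and ERBB4, was also highest among the named types in Ductal-like cells, at 22.0, 38.0, 34.9 and 40.7 CPM. MucinDuctal cells had 18.7, 31.5, 21.6 and 24.1 CPM, overlapping the Ductal-like values. Acinar cells had 3.35, 3.63, 2.37 and 4.29 CPM, and Tuft cells 1.76, 1.64, 0.90 and 2.11 CPM. The Tuft values were below all Acinar values.

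Hbegf, heparin-binding EGF-like growth factor, differed widely between types. Acinar cells had 3.55, 12.7, 1.76 and 2.61 CPM, Acinar/MucinDuctal cells 39.97, 78.2, 32.6 and 38.0 CPM, and MucinDuctal cells 104, 175, 49.1 and 87.1 CPM. The Acinar values lay below both other types, which overlapped each other. In Tuft/EEC.Progenitor cells the 3 mice with enough cells had 245, 97.9 and 124 CPM, the highest mean of the named types, and 97.9 CPM became 103 CPM without the cell with neutrophil markers. Ductal-like cells had 44.1, 102, 37.1 and 48.9 CPM. In each of these 5 types, 2 weeks, mouse 2 had the highest value. Untyped ductal-like cells varied most, with 29.8, 309, 102 and 26.4 CPM.

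Egf, the founding ligand of the family, was the member whose levels among the named types were highest in acinar cells. Acinar cells had 7.62, 5.70, 7.74 and 4.96 CPM and dividing Acinar.Prolif cells 7.22, 5.02, 8.39 and 4.25 CPM, 2 ranges that overlapped. MucinDuctal cells had 3.59, 0.94, 2.45 and 1.67 CPM and Tuft cells 0, 0.75, 1.20 and 0.58 CPM. Acinar cells were above MucinDuctal cells in all 4 mice and without overlap. Acinar-like cells without a type name had 12.6, 13.1, 8.80 and 6.34 CPM, so the untyped acinar cells carried Egf as well.

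Areg, amphiregulin, was rare and concentrated in few cells. Of 604 Areg UMIs in the whole data set, 516 (85.4%) were in MucinDuctal cells, where they came from 89 of 3983 cells. Per mouse these were 31 UMIs in 9 cells, 398 in 51 cells, 14 in 11 cells and 73 in 18 cells. A single cell in 2 weeks, mouse 2 held 116 UMIs. On the CPM scale MucinDuctal cells had 3.59, 10.7, 0.78 and 3.13, and EEC cells 0.49, 1.78, 1.58 and 2.52, so the 2 types overlapped. In Acinar cells 2 Areg UMIs were counted in 3698 cells.

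Ereg, epiregulin, was rarer still, with 29 UMIs in all. MucinDuctal cells held 23 of them in 9 cells, 21 of these in 2 weeks, mouse 2, and 1 cell held 13. The other 6 were in 3 fibroblast-like cells. No level of Ereg can be compared between types at this depth.

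A comparison of Acinar cells with the MucinDuctal cells that carry the same lineage mark is the main contrast of the injury design. The types were defined by the authors on these same counts, so the ratios below are descriptions without a p-value. A gene was counted as higher or lower where all 4 mice had the same direction and the mean log2 ratio was at least 1, among genes with at least 1 CPM as the mean over both types. A gene without UMIs in the lower type of a mouse has an infinite ratio, which was set to a large fixed value. Such a gene met the limit on the mean whenever all mice had the same direction. Of the 9 members 8 passed that filter on low values, and Ereg did not. Areg passed only through its level in MucinDuctal cells. A gene that passes in this way has to differ, so the counts of members here and below describe them and support nothing. Counted as higher were 7 and as lower 1, beside 78.8% of all 11823 genes counted as higher and 2.37% as lower. With digestive enzyme genes left out of the library sizes, the ratios of Egfr and Tgfa fell under the limit. The median of all genes fell as well. The median of all genes was itself 1.59 (log2), or 3.02-fold, higher in MucinDuctal cells, where digestive enzyme transcripts took up 25060 CPM, against 555033 CPM in Acinar cells. Since most genes were counted as higher, each member is given below against that median.

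**Figure D2:**
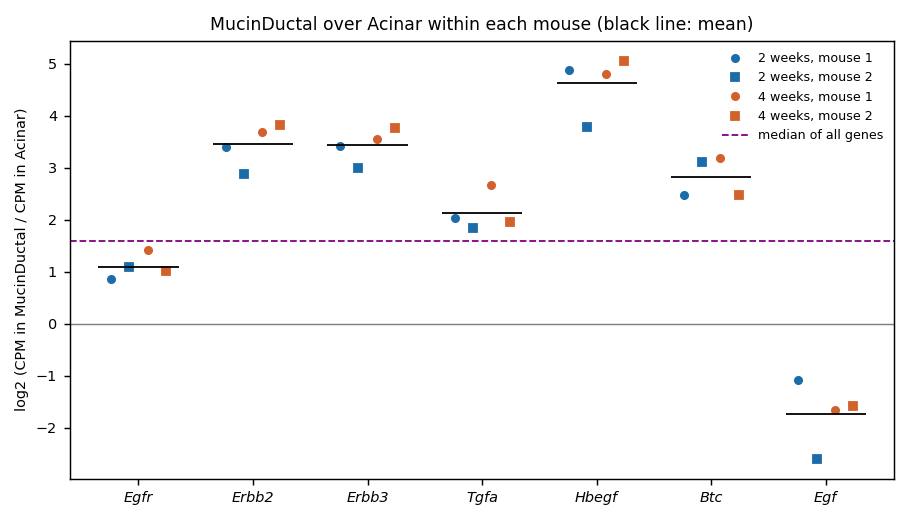
Log2 ratio of CPM in MucinDuctal over Acinar cells within each mouse, 1 point per mouse, for the 7 members with counts in every mouse and type. The dashed line marks the median of all genes at 1.59, with Egfr below it, Hbegf, Erbb2, Erbb3 and Btc above it, and Egf below 0 in each mouse.

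Hbegf had the largest ratio among members with counts in every mouse, 4.63 ± 0.57 (log2, SD, n = 4), which is 2.74 above the median of all genes when taken from mean CPM and stands at the 97.3rd percentile of genes. The immediate early list was also higher in MucinDuctal than in Acinar cells in each mouse, with means of 3436 and 860 CPM, and its part in the Hbegf ratio was not tested. Erbb2 had a ratio of 3.45 ± 0.41 and Erbb3 of 3.43 ± 0.33, which are 1.76 and 1.81 above the median. Btc followed with 2.82 ± 0.39, or 1.22 above the median. These 4 members were above the median in 4 of 4 mice each. Tgfa, at 2.13 ± 0.37, was 0.48 above it.

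Egfr behaved differently from the other receptors. Its ratio of 1.10 ± 0.24 was positive in 4 of 4 mice, yet relative to the median of all genes it was -0.51, above it in 0 of 4 mice. With 35 digestive enzyme genes left out of the library sizes, the plain Egfr ratio turned to -0.038. The median of all genes then fell from 1.59 to 0.47. Which type has more Egfr per unit of RNA therefore depends on the scaling. Egf was -1.73 ± 0.63, or -3.18 relative to the median, at the 1.90th percentile of genes. Its plain ratio stayed negative with the enzymes left out, at -2.86. For Areg, 516 UMIs against 2 gave a pooled ratio of 383, with a 95% exact interval of 106 to 3174 that covers counting error only.

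The type Acinar/MucinDuctal was set against Acinar and against MucinDuctal cells in the same way. Against Acinar cells, 5 of 7 members that passed the filter were counted as higher and 1, Egf, as lower, beside 67.5% and 0.537% of 11910 genes. The share of members counted as higher was near that of all genes, so nothing is read from it. Hbegf led with 3.55 ± 0.68, followed by Erbb2 at 2.63 ± 0.50 and Erbb3 at 2.43 ± 0.15. The median of all genes was itself 1.26 higher in Acinar/MucinDuctal cells. Relative to that median Hbegf was at 1.93, Erbb2 at 1.28 and Erbb3 at 1.15. Egfr was at -0.65, above the median in 0 of 4 mice. From Acinar/MucinDuctal to MucinDuctal, 2 of 8 members were counted as higher, Hbegf and Areg, and 0 as lower, beside 3.45% and 5% of 12550 genes. Areg averaged 0.57 CPM in Acinar/MucinDuctal cells and passed the filter only through MucinDuctal cells, so the count is a description and nothing is read from it. Hbegf had a ratio of 1.08 ± 0.34 in that comparison, and Erbb3, at 1.00 ± 0.27, was just under the limit. The median of all genes was 0.35 there, and relative to it Hbegf was at 0.79 and Erbb3 at 0.64. The Acinar/MucinDuctal cells were much shallower in some mice, with median depths from 2659 to 19556 UMIs, against 15110 to 21810 in MucinDuctal cells.

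Within MucinDuctal cells the authors' label file separates clusters 1 and 2, and some members differed between them. Cluster 1 had 2030 cells, 113, 1138, 228 and 551 by mouse, and cluster 2 had 1953. Cluster 2 carried more of the mucous genes Muc6 (6808 against 1194 CPM) and Tff2 (56817 against 3796 CPM), and cluster 1 more of the keratin Krt19 (987 against 157 CPM). Areg was almost confined to cluster 1, with 501 UMIs in 75 cells against 15 in cluster 2. Its levels were 13.3, 13.2, 2.81 and 6.67 CPM in cluster 1 and 0.16, 0.29, 0.34 and 0.52 CPM in cluster 2. All 23 Ereg UMIs of the MucinDuctal type were in cluster 1.

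Egfr measured 18.2, 17.7, 17.8 and 18.2 CPM in cluster 1 and 9.73, 10.2, 10.4 and 8.41 CPM in cluster 2. The 4 mice were nearly equal within each cluster. They did not overlap between the clusters, and how many of all genes do the same was not counted. Erbb2 likewise had 26.2, 35.2, 32.8 and 33.7 CPM in cluster 1 against 15.4, 18.2, 18.8 and 20.5 CPM in cluster 2. Relative to the median of all genes, Egfr was 0.73 and Erbb2 0.65 higher in cluster 1 on the log2 scale. These values stood at the 89.8th and 88.4th percentiles of genes. By the rule for ratios, Areg, which passed the filter only through cluster 1, was counted as higher and Egf as lower in cluster 1, beside 8.01% and 2.72% of 12309 genes, while Egfr, at 0.90 ± 0.15, fell short of a log2 ratio of 1. The clusters were drawn from the same counts, so no test was made. The immediate early list summed to 3206, 5087, 3275 and 3373 CPM in cluster 1 and 2176, 5148, 2558 and 3620 CPM in cluster 2, which overlap. Cluster 1 made up 1138 of 1388 MucinDuctal cells in 2 weeks, mouse 2, against 113 of 371, 228 of 961 and 551 of 1263 in the other mice, and the part of this in the Areg level of the whole type was not tested.

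**Figure D3:**
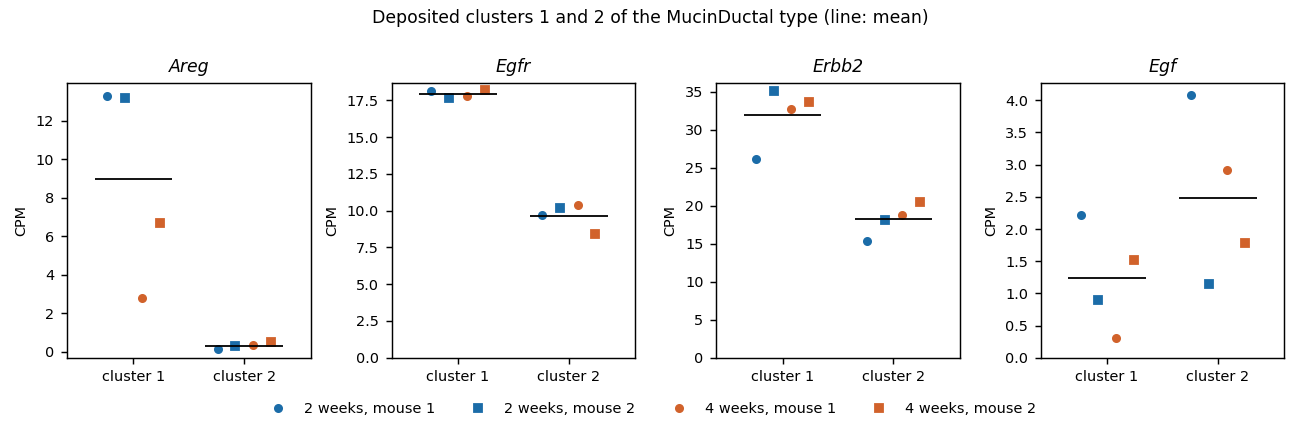
CPM of Areg, Egfr, Erbb2 and Egf in the deposited clusters 1 and 2 of the MucinDuctal type, 1 point per mouse, with a line at the mean. Areg, Egfr and Erbb2 do not overlap between the clusters in the 4 mice, and Egf does. How many of all genes do not overlap was not counted.

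Acinar cells also held 2 large deposited clusters that differed in the members. Egfr averaged 13.2 CPM in cluster 6 and 3.199 CPM in cluster 0, with a log2 ratio of 2.14 ± 0.43 (SD, n = 4), 1.27 above the median of all genes. Of 7 members that passed the filter, 5 were counted as higher in cluster 6 and 0 as lower, beside 31.2% and 0.402% of 10441 genes. Egf had a plain ratio of -0.04 ± 0.46. Taken from mean CPM, it was -0.74 relative to the median of all genes and above that median in 0 of 4 mice. The immediate early list was higher in cluster 6 in each mouse, at 1406, 1592, 716 and 638 CPM against 421, 1168, 291 and 330 CPM in cluster 0, and its part in these ratios was not tested. The median of all genes was itself 1.71-fold higher in cluster 6.

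Against MucinDuctal cells, Tuft cells had 0 of 8 members counted as higher and 6 as lower, beside 17.6% and 14.4% of 12630 genes. Of these 6, Egfr, Areg and Egf averaged under 1 CPM in Tuft cells and passed the filter only through their MucinDuctal level, so nothing is read from the count. Erbb2, Hbegf and Btc were the other 3. Relative to the median of all genes, Btc was at -4.09 and Erbb2 at -3.42 on the log2 scale, whereas Erbb3 was at -0.11 and Tgfa at -0.16. EEC cells had 0 of 8 members counted as higher and 5 as lower (Egfr, Erbb2, Erbb3, Hbegf and Btc), beside 25.3% and 11% of 13316 genes. In Ductal-like cells Tgfa was the 1 member of 8 counted as higher, with a ratio of 1.45 ± 0.32, and Areg, which passed the filter only through MucinDuctal cells, the 1 counted as lower, beside 14.2% and 3.97% of 13134 genes. Fibroblast-like cells had Egfr as the member counted as higher and 6 counted as lower, beside 23.6% and 15.6% of 13478 genes. Areg, one of the 6, was at 0 in fibroblast-like cells and passed only through MucinDuctal cells.

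Tuft cells were divided by the authors into subtypes, and Hbegf separated 2 of them. Tuft-2 cells had 36.4, 65.9, 38.1 and 43.6 CPM of Hbegf, and Tuft-3 cells 19.9, 20.1, 8.70 and 8.28 CPM. All Tuft-3 values lay below all Tuft-2 values. The log2 ratio was -1.78 ± 0.67 (SD, n = 4), at the 1.98th percentile of genes, and Hbegf was the 1 member of 5 past the filter that was counted as lower, beside 3.2% of 11997 genes, with 0 counted as higher beside 4.2%. The immediate early list was also lower in Tuft-3 in each mouse, with 2351, 2506, 2237 and 2950 CPM against 3107, 3499, 3482 and 3491 CPM in Tuft-2, and its part in the Hbegf difference was not tested. Erbb3 was level between the subtypes, at 0.09 ± 0.21. Nrg4, a neuregulin that binds ERBB4, had the opposite order to Hbegf, with 29.1, 39.2, 47.9 and 37.3 CPM in Tuft-2 and 64.2, 79.7, 129 and 99.8 CPM in Tuft-3. In Tuft cells as a whole Nrg4 reached 39.8, 41.9, 85.4 and 66.7 CPM, against at most 14.1 CPM in a mouse's MucinDuctal cells. Its receptor gene Erbb4 was at 0 in EEC cells and, among the named types, highest in Ductal-like cells, with 8.36, 7.09, 2.18 and 10.2 CPM, from 11, 17, 1 and 5 UMIs. Untyped ductal-like cells had more in every mouse, with 9.38, 13.7, 19.2 and 11.3 CPM.

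**Figure D4:**
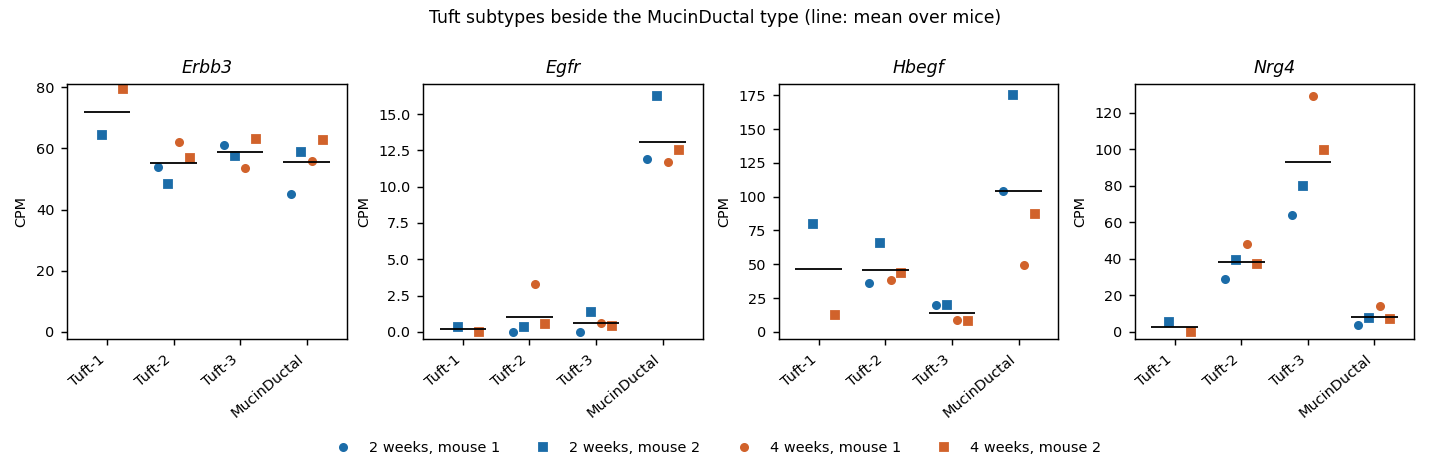
CPM of members and of Nrg4 in the tuft subtypes named by the authors, 1 point per mouse with at least 20 cells of the subtype. Hbegf is lower in Tuft-3 than in Tuft-2 in each mouse, Nrg4 is higher, and Erbb3 overlaps.

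The share of MucinDuctal cells with at least 1 UMI at full depth averaged 62.2% for Erbb3, 51.7% for Hbegf, 36.8% for Erbb2, 34.9% for Btc, 21.8% for Egfr, 15.6% for Tgfa, 4.20% for Egf and 2.17% for Areg. Among B cell-like cells, which should lack these genes, no share exceeded 0.748% (Erbb3). Median depths were 2844 to 3583 UMIs there and 15110 to 21810 UMIs in the MucinDuctal type. After each cell was thinned to 1500 UMIs, the shares were 8.19% for Erbb3 and 12.3% for Hbegf in MucinDuctal cells, the reverse of their order at full depth, while the B cell-like class had 0.376% and 0.248%. Egfr was at 2.02% against 0.12%, and Egf at 0.293% against 0.099%, so Egf in MucinDuctal cells stood little above that background while in Acinar cells it was at 1.22%.

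Receptor and ligand UMIs were also counted within the same cell. At least 1 receptor UMI and at least 1 ligand UMI were present together in 57.1% of MucinDuctal, 69.9% of Ductal-like, 28.8% of Tuft, 14.1% of Acinar and 12.4% of EEC cells, as means over mice. The product of the share with a receptor UMI and the share with a ligand UMI averaged 54.2%, 64.3%, 27.7%, 10.3% and 11.4% in the same types. Acinar cells had median depths of 24008 to 32665 UMIs, deeper than MucinDuctal cells. Digestive enzymes took up more of the UMIs in Acinar than in MucinDuctal cells, and the thinning drew from all UMIs. A thinned Acinar cell therefore held fewer UMIs of other genes. At 1500 UMIs per cell the shares with both were 2.45% in MucinDuctal, 2.39% in Ductal-like, 0.549% in Tuft, 0.0825% in Acinar and 0.291% in EEC cells, against products of 2.29%, 2.02%, 0.559%, 0.0603% and 0.313%. As means over mice, the share with both was thus above the product in all 5 types at full depth, and below it in Tuft and EEC cells at 1500 UMIs. Single mice went the other way. At full depth, Ductal-like cells were below it in 2 weeks, mouse 1 (84.2% against 84.8%) and mouse 2 (83.9% against 84.6%). Tuft cells were below it in 2 weeks, mouse 1 (32.5% against 32.8%). At 1500 UMIs, 4 weeks, mouse 2 was above the product in Tuft (0.674% against 0.486%) and EEC cells (0.334% against 0.328%). It was below the product in Ductal-like cells (2.06% against 2.23%), as was 2 weeks, mouse 1 in Acinar cells (0.0514% against 0.0527%).

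Between 2 and 4 weeks none of the members passed the test in any type. Of 45 pairs of member and type tested with edgeR's quasi-likelihood test over all genes, 0 were called at an adjusted p under 0.05, beside 1 of 79056 pairs of gene and type (0.00126%). At an unadjusted p under 0.05 there was 1 of 45, beside 4.29% of all pairs. DESeq2 called 0 of 53 pairs of member and type, beside 0.124% of 104470 pairs over all genes. At an unadjusted p under 0.05 DESeq2 had 4 of the 53 (7.55%), beside 1.76% of all its pairs. In the 11 untyped classes 0 of 19 pairs were called by edgeR, beside 0.0153% of 71910, with 2 at an unadjusted p under 0.05, beside 4.39%. DESeq2 called 0 of 78 there, beside 0.0143% of 168003, with 0 at an unadjusted p under 0.05, beside 0.505%.

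Hbegf came nearest. Its log2 ratio of 4 over 2 weeks was below 0 in 7 of 7 types, at -1.34 ± 0.57 (SE) in Acinar, -0.91 ± 0.37 in MucinDuctal and -0.91 ± 0.24 in Tuft cells, where edgeR gave an unadjusted p of 0.0059 and an adjusted p of 0.425. The types share the same mice and are not separate observations, and how many of all genes were below 0 in every type was not counted. In 4 of 7 types both 4-week mice were below both 2-week mice, a pattern that 19.4% of 9853 genes showed in at least 4 types. The immediate early list was also highest in 2 weeks, mouse 2, with 2445, 5099, 2686 and 3516 CPM in MucinDuctal and 826, 1759, 383 and 472 CPM in Acinar cells, and its part in the Hbegf difference was not tested. Without 2 weeks, mouse 1, Hbegf was called in 5 of 7 types, in a setting where the calls over all genes rose to 1410 of 81591 pairs (1.73%). Without 2 weeks, mouse 2, it was called in none, beside 0.97% of 78903 pairs, with values of -0.53 in MucinDuctal and 0.0091 in Ductal-like cells.

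**Figure D5:**
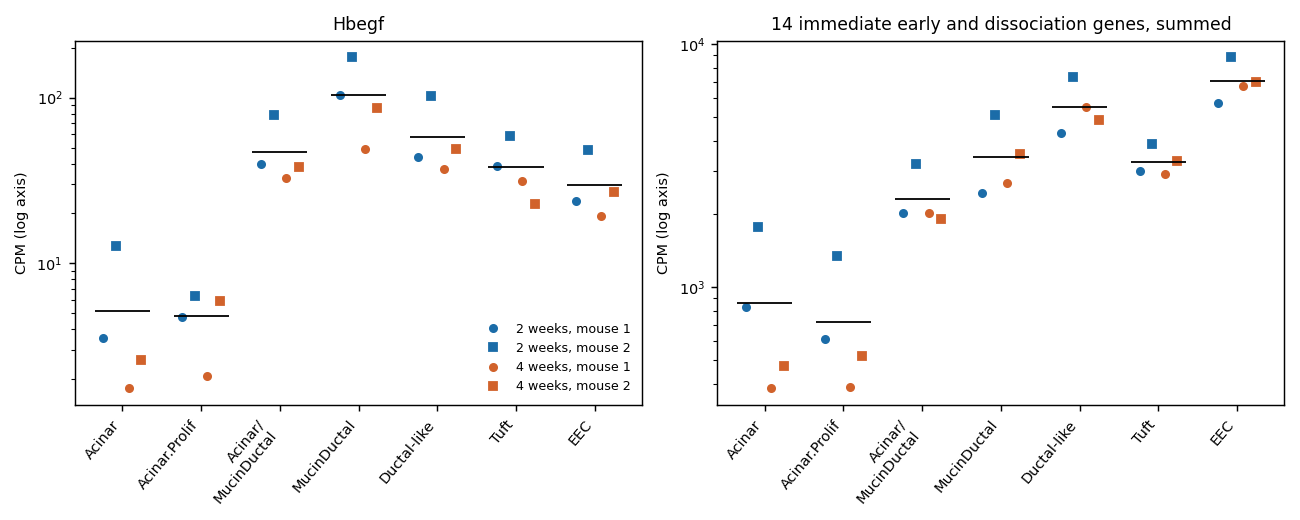
Hbegf CPM and the summed CPM of 14 immediate early genes per mouse in the cell types named by the authors. Both are highest in 2 weeks, mouse 2 in MucinDuctal, Acinar, Tuft and EEC cells.

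Of the other members, Areg in MucinDuctal cells had a ratio of -1.76 ± 0.81 (edgeR, adjusted p = 0.824). That value moved with single mice left out: it was -0.76 without 2 weeks, mouse 2, -1.09 without 4 weeks, mouse 1, -2.26 without 2 weeks, mouse 1, and -3.07 without 4 weeks, mouse 2. Ratios were smaller for Erbb3 in MucinDuctal cells, at 0.31 ± 0.16, and Tgfa in Tuft cells, at 0.63 ± 0.28. Egfr was between -0.54 and 0.41 in the 6 types where it was tested. In untyped cells, Tgfa in ductal-like cells was at 0.81 ± 0.35 and Erbb2 in fibroblast-like cells at -1.26 ± 0.41, both with an unadjusted p under 0.05 and neither called.

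The rest of the pathway was followed with a list of 46 genes. In MucinDuctal over Acinar cells, 36 of the 39 that passed the filter were counted as higher and 0 as lower, beside the 78.8% of all genes counted as higher, and their median lay 0.28 above that of all genes. By role, with no test between roles, 12 of 12 feedback inhibitors lay above the median of all genes, with a median of 1.08 above it, and 5 of 7 induced targets, with 1.24. The part of the immediate early list, which is higher in MucinDuctal cells, was not tested here either. Of the adaptors and MAP kinase genes 7 of 15 lay above the median of all genes, with a median of -0.026, and of the shedding genes 1 of 4, with -0.62. Between Acinar.Prolif and Acinar cells, 34 genes of the list passed the filter, among them 9 feedback inhibitors and 6 induced targets. Some of the 12 and 7 may therefore have passed only through their MucinDuctal level, and such genes have to lie high. The counts by role are descriptions, and nothing is read from them. Among feedback inhibitors, Lrig1, which promotes removal of the receptors, averaged 97.3 CPM in MucinDuctal and 6.11 CPM in Acinar cells, and Errfi1, an inhibitor of the EGFR kinase, 110 CPM in Ductal-like and 106 CPM in MucinDuctal cells. The levels that follow are ranked among the named types. Of the sheddases, Adam17 averaged 36.8 CPM in Ductal-like and 6.49 CPM in Acinar cells. The median of all genes was itself 4.04-fold higher in Ductal-like than in Acinar cells. Adam10, the shedding gene with the highest mean over the named types, averaged 63.8 CPM in MucinDuctal and 43.1 CPM in Acinar cells. There the median of all genes was 3.02-fold higher in MucinDuctal cells. Mapk3, the kinase ERK1, was highest in Tuft cells, at 272 CPM, and lowest in Acinar cells, at 12.8 CPM. Among genes induced by the pathway, Phlda1 was highest in Tuft cells, at 211 CPM, Egr1 in EEC cells, at 633 CPM, and the cyclin Ccnd1 in Ductal-like cells, at 389 CPM, with 5.38 CPM in EEC cells.

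Over time, edgeR called 0 of 251 pairs of pathway gene and type in either direction, with 22 (8.76%) at an unadjusted p under 0.05, beside 4.29% of all pairs. The lowest adjusted p values among those named here were for Nrg4 in Tuft cells, 0.88 ± 0.16 (log2, edgeR, adjusted p = 0.172), and Phlda1 in Acinar/MucinDuctal cells, -1.02 ± 0.16 (edgeR, adjusted p = 0.186). Phlda1 was also at -1.01 ± 0.18 in MucinDuctal cells. DESeq2 called 2 of 284 pairs, Ccnd1 and Phlda1 in MucinDuctal cells, both lower at 4 weeks, beside 130 of 104470 pairs (0.124%) of all genes.

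Genes whose levels were most like those of each member were sought over 31 sums of mouse and type, among 8049 genes with at least 10 CPM on average. The points share mice and depth, so the Pearson correlations of log2(CPM + 1) are descriptions. They also hold the shift of most genes between types. The median of all genes was 3.02-fold higher in MucinDuctal and 4.12-fold higher in EEC than in Acinar cells. Shared regulation is not read from them. Erbb3 was closest to Klf3 (r = 0.98), Cblc (0.97) and Fau (0.97), and Hbegf to Eef2 (0.98), Efna4 (0.97) and Nop53 (0.97). Erbb2 was closest to Pamr1 (0.95), Sestd1 (0.95) and Lamp2 (0.94), and Btc to Ephx1 (0.95), Rflnb (0.94) and Frmd4b (0.94). Tgfa was close to Sptssa and Zfp809 (0.93 each), Egfr to Wdr72 (0.87), Lifr (0.86) and Ano1 (0.85), and Egf to Gcnt1 (0.80), Gatm (0.78) and Sel1l (0.78). Areg reached 0.78 with Gsto1, 0.71 with Golim4 and 0.69 with Gnai1, and Ereg at most 0.56, with Sfn, then 0.46 with Rdh10 and 0.45 with Paox. Egfr, Tgfa, Areg, Ereg and Egf were themselves under the average of 10 CPM asked of the other genes. Ereg had too few UMIs for a comparison between types, so nothing is read from its correlations.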

How the data were processed

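The tables deposited by the authors hold raw, unnormalized counts of UMIs for each gene in each single cell of 4 mice. Cell Ranger 4.0.0, Seurat 3.2.3 and the build mm10 are named in the submitters' processing notes. The deposited cells had at least 1000 UMIs, and the authors' filters are otherwise not given in the sources used here. Cells were assigned to mice by the sample name within the cell name, and to types by the labels the authors deposited. Replicates are the mice, 2 per time point.

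Counts were summed per mouse and type and scaled to CPM by the total of the sum. Time points were compared with edgeR 4.0.16 in R 4.3.3 (quasi-likelihood, robust, TMM, filterByExpr, two-sided, Benjamini-Hochberg over all genes of a type, threshold 0.05), in types with at least 20 cells in each mouse. The script was tested on simulated data. DESeq2 1.42.0, other scalings and filters, and leaving out each mouse were alternatives. Shares were computed from the counts at full depth and as their mean after thinning to 1500 UMIs. Shares at full depth and pooled ratios have 95% exact intervals that cover counting error only. Untyped cells were clustered with scanpy 1.11.5 (Leiden resolution 0.6 on 15 neighbours and 30 components of 2000 variable genes). A class name needed 3 or more of its markers, each found in 20% or more of the cells with a log2 fold over other clusters of 1 or more. A cluster stayed unnamed where 2 classes tied or another class had more markers among its top 10 genes. Of 28 clusters 8, with 825 cells, have no name: 3 had too few markers, 3 were ties and 2 had more top markers of another class. No doublets were removed. The 5% of cells with the most UMIs were left out as an alternative.

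Named genes are the 9 members, pathway genes past the threshold or the 3 highest by mean CPM of each role, and the 3 genes most like each member. The members and lists were chosen with earlier results of these data known. The ratio relative to the median of all genes, the deposited clusters, the levels without cells of 10 or more neutrophil marker UMIs and the macrophage-like class without a cluster held mostly by 1 mouse were added after the data were seen. Promoter sequences are RefSeq's, GRCm38.p6. Some items that this rule or the sequence tables would give are not reported here.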

Additional observations from a re-analysis of the deposited data

How the results depend on the processing

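No paired analysis was possible because the replicate numbers follow accession order and do not pair mice across time points. With 2 mice a time point, the counts of called genes depended on the setting. Members called over time numbered 0 in the types and 0 in the untyped classes, and 2 and 1 with no gene filter. Leaving out 1 mouse, with the lone mouse of that time point assumed to vary like the others, gave 0 to 5 in the types, 5 without 2 weeks, mouse 1, and 0 to 2 in the classes. Pathway genes called went from 0 to 2 with DESeq2 and to 9 with no gene filter, and ranged from 0 to 11 with 1 mouse left out. All genes called in the types went from 1 to 130 with DESeq2, 892 with no filter, 0 without robust estimation and 12 without the deepest 5% of cells, and ranged from 24 to 1410 with 1 mouse left out. In the classes they went from 11 to 24 with DESeq2, 470 with no filter, 1 without robust estimation and 17 without enzyme genes, and ranged from 146 to 1547. For each of these the cause was not tested.

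With 1 mouse left out, Hbegf ranged from -1.14 to 0.28 in Acinar.Prolif cells, positive without 4 weeks, mouse 1, and from -1.27 to 0.0091 in Ductal-like cells, positive without 2 weeks, mouse 2. With enzyme genes out of the library sizes, MucinDuctal over Acinar was -0.038 for Egfr, 2.31 for Erbb2, 2.29 for Erbb3, 0.99 for Tgfa, 3.49 for Hbegf, 1.68 for Btc and -2.86 for Egf, while the median of all genes went from 1.59 to 0.47, and Egf in Acinar cells went from 6.51 to 14.7 CPM. With each cell weighted equally, Egf in Acinar cells was 8.14 CPM, and the ratio relative to the median was -0.17 for Egfr and 1.65 for Btc. For Areg that ratio ranged from 5.28 to 8.26 with 1 mouse left out. Thinning to 3000 UMIs gave larger shares by construction: Egfr 3.95% in MucinDuctal, Erbb2 9.07%, Tgfa 7.32% and Btc 9.68% in Ductal-like, Erbb3 20.7% and Hbegf 29.5% in Tuft/EEC.Progenitor, and Egf 2.39% in Acinar cells.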
